A study of Mus musculus with 16 samples.

Results

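Acyl-CoA thioesterases were followed in the livers of mouse offspring whose dams had inhaled titanium dioxide particles during pregnancy. The family as described here holds 7 genes, Acot1, Acot2, Acot3, Acot4, Acot5, Acot8 and Acot12. They were found on the arrays by gene name or older synonym, and each gene was read from its probe with the highest mean liver signal. The 7 genes had 8 probes, because Acot4 had a second one, and 6 of the 7 were among the 19363 genes tested in the whole data set. The family was selected on the low log2 ratios of Acot1 and Acot2 in exposed males, so their values in the male comparison are given as a description with no test.

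Acyl-CoA thioesterases split acyl-CoAs into a free fatty acid and coenzyme A. They thereby set how much activated fatty acid stays available for oxidation or lipid synthesis, and return coenzyme A to the pool of the compartment they work in. The type I enzymes lie side by side in a gene cluster and differ mainly in where in the cell they act, with Acot1 in the cytosol, Acot2 in mitochondria, and Acot3, Acot4 and Acot5 in peroxisomes. Acot8 of peroxisomes and Acot12 of the cytosol belong to the structurally unrelated type II enzymes. In mouse liver, fasting and fibrate drugs raise several type I genes through the nuclear receptor PPAR-alpha, and Acot1 is a commonly used target gene of that receptor.

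The 16 offspring came from time-mated C57BL/6BomTac dams that breathed filtered clean air or about 42 mg/m3 UV-Titan (nanosized titanium dioxide with a coated surface) in a whole-body chamber, 1 hour daily from gestation day 8 to day 18. There were 3 female controls, 5 females with maternal UV-Titan, 4 male controls and 4 males with maternal UV-Titan, with 1 two-colour array for each animal, and animals are named here by the number in their label. Livers could have come from newborns on postnatal day 2 or from weanlings on postnatal days 23 to 24, and the labels give neither the age nor the litter of each animal. The p-values measure the spread between these animals, some of which may share a litter.

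Each array set RNA from random sections of one liver against a universal mouse reference RNA. The label fields and the labelling protocol named opposite dyes, and red was taken as liver because the median hepatocyte marker was brighter in red, by 4.59 to 5.82 log2 on the 16 arrays. Xist and Ddx3y separated the sexes as labelled on all 16. Liver signals were well above background for 57.7% to 67.1% of spots. Male controls 31 and 33 stood apart by transcripts of the exocrine pancreas, and male UV-Titan 5 by transcripts of skeletal muscle, and the members and gene lists in males are given with and without the first pair.

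The probes show which stretch of each transcript was read, and whether close relatives could be told apart. The middle 30 bases of each 60-base probe, positions 16 to 45, are printed 5′ to 3′ in lower case as deposited with the arrays.
Acot1: gattcaagggctgggaatggagtttcattg
Acot2: atattatcacaatgtcagttcaggttagtt
Acot3: atcctttggaaggacctgaccagaagagct
Acot4: aattcatgtttagggcattaatggcttata
Acot4, second probe: ctaggagctgatgtctgtctgatcatggct
Acot5: tgagtggggacaagaggccaagcccagcaa
Acot8: gagtaagctatagtgaaagatgcctggctc
Acot12: actccagtttgcaggatctaccttacccag
Over the full 60 bases, the longest identical run between any of the 28 pairs of these probes was 4 to 7 bases, so the probes themselves are distinct. Whether a probe also matches the transcript of a close relative outside its own target was not tested, because no transcript sequences were used here.

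In the array files, whose positions are in build mm7, the type I probes lie close together on chromosome 12 on the plus strand. The Acot2 probe spans chr12:81989158-81989217 and the Acot1 probe chr12:82013539-82013598. They are followed by the Acot4 probes at chr12:82039249-82039308 and chr12:82039908-82039967, the Acot3 probe at chr12:82054675-82054734 and the Acot5 probe at chr12:82071793-82071852. The Acot8 probe lies at chr2:164533514-164533573 on the minus strand and the Acot12 probe at chr13:88859346-88859405 on the plus strand. Exons and UTRs of that build were not used here.

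Values are log2 ratios of liver over reference after background correction and normalisation within each array, unless the liver channel alone is named. The correction adds an offset of 50 to both channels, so a difference of a dim probe is understated. Acot1, Acot2, Acot3, Acot4, Acot8 and Acot12 were well above background in liver on 16 of 16 arrays. Acot5, a peroxisomal enzyme for medium-chain acyl-CoAs, was well above background in liver on 2 arrays, those of male control 33 and female control 25. It missed the minimum of 3 arrays for testing, and its log2 ratio stayed between -0.15 and 0.37 over the 16 animals.

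Several members were far brighter in liver than in the reference RNA. Acot12, which splits acetyl-CoA, was well above background in the reference on 1 array of 16 and was at least 34.9-fold higher in liver. Acot4, which acts on succinyl-CoA and other dicarboxylic acyl-CoAs, was above background in the reference on 3 arrays by its brighter probe and at least 15.4-fold higher in liver by that probe. Its second probe was above background in the reference on 14 arrays and gave 3.8-fold. Acot3, a long-chain enzyme, was above background in the reference on 0 arrays and at least 4.28-fold higher in liver. These bounds compare dyes that were not swapped and are open to dye bias. Acot1 was measured in the reference on 16 arrays and was 2.58-fold higher in liver, Acot8 was 1.64-fold higher, and Acot2 had a ratio of 0.909.

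**Figure D1:**
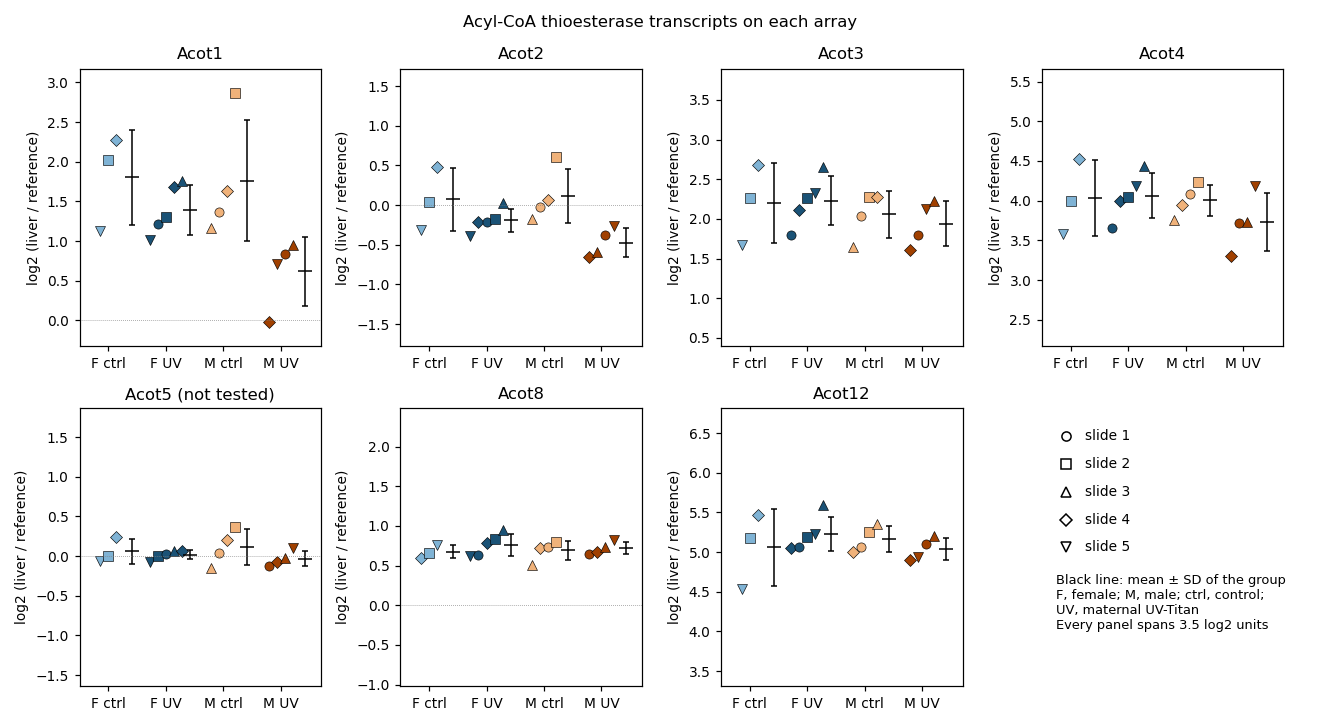
Log2 ratio of liver over reference (vertical axis) of the 7 genes on each of the 16 arrays, by sex and maternal exposure, with the symbol giving the slide and the black line the group mean ± SD. Acot1 and Acot2 of the 4 exposed males lie below all 4 male controls, while the groups overlap for Acot3, Acot4, Acot8 and Acot12 and Acot5 was not tested.

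Acot1, the cytosolic long-chain thioesterase, was lowest in exposed males. Male controls 41, 31, 43 and 33 had log2 ratios of 1.63, 1.17, 1.37 and 2.87, and exposed males 4, 5, 3 and 17 had -0.02, 0.95, 0.84 and 0.71. All 4 exposed males lay below all 4 controls, with male UV-Titan 4 far below the rest and male control 33 far above. The group means were 0.62 ± 0.44 (SD, n = 4) with UV-Titan and 1.76 ± 0.76 (SD, n = 4) without. The difference was -1.14 ± 0.33 log2 (SE), with a 95% interval of -1.83 to -0.44, or 2.2-fold lower. Because the low male values of Acot1 and Acot2 chose the family, the sizes for both may be overstated. Their intervals in males do not have the usual 95% coverage and are no test. The liver channel alone gave -1.13 ± 0.31 log2 (SE) without overlap, from 10.34 to 11.26 in exposed males and 11.48 to 13.19 in controls. The reference channel of the same spots differed by 0.01 log2. Transcripts per cell and the number of cells that express a gene cannot be told apart in whole liver RNA, here or below.

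Acot2, the mitochondrial counterpart of Acot1, was also lowest in exposed males. Male controls 41, 31, 43 and 33 had log2 ratios of 0.06, -0.18, -0.02 and 0.60, and exposed males 4, 5, 3 and 17 had -0.66, -0.59, -0.38 and -0.26. The groups did not overlap, and control 33 was again the highest and exposed male 4 the lowest. The difference was -0.59 ± 0.17 log2 (SE), with a 95% interval of -0.94 to -0.23, or 1.5-fold lower. The liver channel gave a smaller difference, -0.43 ± 0.19 log2 (SE), and there the groups overlapped. Exposed male 17 was at 8.41 in liver, above 3 of the 4 controls. That array lay on slide 5, where the reference signal of Acot2 was 8.08 to 8.18 on 3 arrays against 7.60 to 7.79 on the other 13. Slide 5 held 0 male controls, so exposed male 17 has no control on its own slide.

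The other members differed less in males, and their groups overlapped. For Acot4 the exposed males lay from 3.30 to 4.19 and the controls from 3.76 to 4.23, a difference of -0.27 ± 0.20 log2 (SE) by ratio and -0.27 ± 0.19 in the liver channel. The second Acot4 probe gave -0.17 ± 0.15 log2 by ratio, and the probes correlated at r = 0.90 over the 16 arrays. For Acot3 the exposed males lay from 1.61 to 2.22 and the controls from 1.65 to 2.28, with a difference of -0.12 ± 0.21 log2. It was -0.66 with Agilent's processed signals and -0.26 to -0.01 without single arrays. Acot12 had -0.13 ± 0.16 log2, which turned to 0.15 with Agilent's processed signals. Acot8, a peroxisomal enzyme with a broad range of substrates, had 0.03 ± 0.08 log2 by ratio, -0.13 with median centring in place of loess, and -0.19 ± 0.13 in the liver channel. Without male controls 31 and 33 the ratio differences were -0.22 for Acot3, -0.27 for Acot4, -0.001 for Acot8 and 0.003 for Acot12.

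By ratio 5 of the 6 tested members had a lower mean in exposed males, where 43.5% of all genes did. Their median difference was -0.20 log2 against 0.02 over all genes. Without controls 31 and 33 the count was also 5, against 42.5% of all genes, with a median of -0.25. The groups of 2 members, Acot1 and Acot2, did not overlap, with the exposed males lower, and 1.09% of all genes showed that pattern. With the exposed males higher it was 0 members by ratio, against 1.91% of all genes. All 6 of 6 liver-channel means were lower, against 48.7% of all genes, and 1 member, Acot1, did not overlap against 0.831%. The male comparison is the one that drew attention to this family, so nothing is read from these counts. Over all genes limma called 0 of 19363 in males (0%) at an adjusted p under 0.05, by ratio and in the liver channel, with 957 (4.94%) and 621 (3.21%) below an unadjusted p of 0.05.

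The size of the male difference depended on a few animals, while Acot1 and Acot2 stayed lower in exposed males in every alternative run. Their groups did not overlap by ratio, so the sign was fixed in advance for the runs that left out arrays. Acot1 was -0.77 log2 without male control 33, -1.33 without control 31 and -0.92 without exposed male 4. Acot2 was -0.43 without control 33 and -0.69 without control 31. Without both controls that carried pancreas transcripts, Acot1 was -0.88 ± 0.31 and Acot2 -0.49 ± 0.17 log2 (SE). The mean of 12 measured pancreas markers of 15 listed stood 2.80 and 1.64 log2 above its average over all arrays in controls 31 and 33, and lay between -0.48 and -0.18 on the other 14 arrays. Acot1 was the lowest of the 4 male controls in the animal with the highest pancreas level and the highest in the other. The mean of 7 measured skeletal muscle markers of 9 was 2.28 in exposed male 5 and -0.37 to 0.38 elsewhere, and Acot1 was -1.25 without that animal.

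Within-slide differences by ratio are given for slides that held an exposed and a control animal of one sex. Because the male groups of Acot1 and Acot2 did not overlap by ratio, every male pair had to be lower in the exposed animal. In males the within-slide differences of Acot1 were -0.53, -0.22 and -1.64 log2 on slides 1, 3 and 4. Those of Acot2 were -0.36, -0.41 and -0.73. In females slides 2, 4 and 5 gave -0.72, -0.59 and -0.13 for Acot1 and -0.22, -0.70 and -0.08 for Acot2. Each of these values compares 1 animal with 1 other. Acot3 and Acot4 were lower in the exposed animal on some slides and higher on others, from -0.67 to 0.66 and from -0.64 to 0.60 log2.

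Hepatocyte markers, as the mean of 10 genes against all arrays, ran from -0.68 to 0.48 log2 in exposed males and from 0.04 to 0.52 in male controls. In females they ran from -0.31 to 0.55 with UV-Titan and from -0.59 to -0.33 in controls by ratio, but in the liver channel the scores overlapped, at -0.08 to 0.22 and -0.08 to 0.01. The male liver-channel scores were -0.05 to 0.09 and -0.06 to 0.10. Platelet markers, as the mean of 4 genes, ran from 0.09 to 0.29 in exposed females and from -0.53 to -0.30 in female controls, also apart in the liver channel. Endothelial markers (3 genes) did not overlap in females by ratio, at -0.14 to 0.36 with UV-Titan and -0.49 to -0.16 in controls, and overlapped in the liver channel. Neutrophil markers (3 genes) overlapped in females by ratio and did not in the liver channel, at -0.11 to 0.40 and -0.61 to -0.35. Kupffer cell and bile duct markers overlapped between the exposure groups in both sexes, and endothelial, platelet and neutrophil markers did in males. The part of these marker lists in the results for this family was not tested. None of the adipose markers listed passed the filter.

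**Figure D2:**
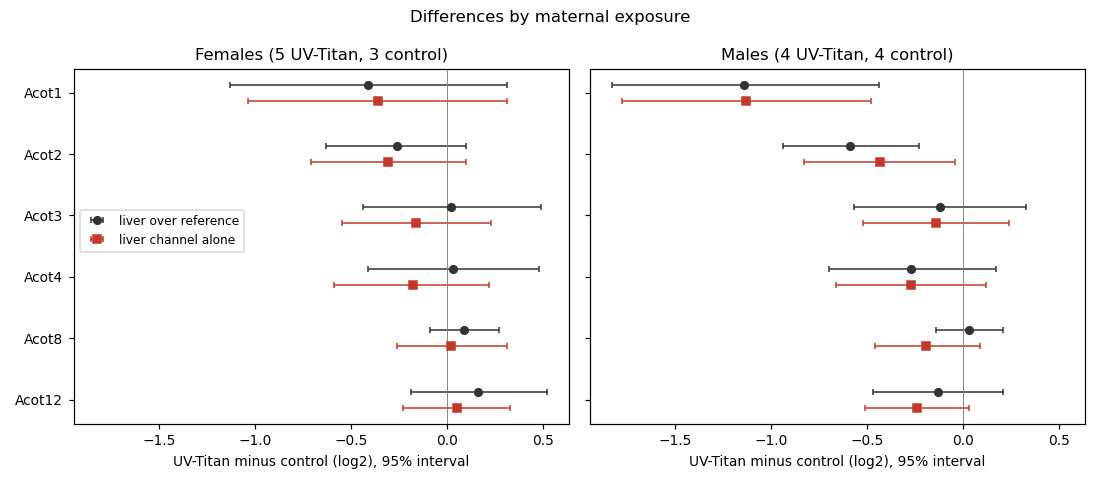
Difference between UV-Titan and control in log2 (horizontal axis) for the 6 tested members, with the 95% interval of the limma fit, in females and in males. Circles give liver over reference and squares the liver channel alone. All female intervals cross 0, and the male values of Acot1 (-1.14) and Acot2 (-0.59) by ratio, which chose the family, show size and spread and no test.

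In females the type I genes of cytosol and mitochondria had lower means with UV-Titan, but no member passed. Female controls 35, 40 and 25 had Acot1 log2 ratios of 2.27, 2.02 and 1.13. Exposed females 2, 8, 21, 10 and 16 had 1.68, 1.76, 1.22, 1.30 and 1.01. Control 25 lay among the exposed animals, so the groups overlapped. The difference was -0.41 ± 0.34 log2 (SE, limma adjusted p = 0.879), with a 95% interval of -1.13 to 0.31. It was -0.75 without control 25, -0.18 without control 35 and -0.06 with median centring in place of loess. These controls had the lowest array weights in limma, 0.571 for control 25 and 0.395 for control 35. Control 35 also had the lowest share of liver spots well above background, 57.7%. The part of array quality in these shifts was not tested.

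For Acot2 female controls 35, 40 and 25 had 0.48, 0.04 and -0.31, and exposed females 2, 8, 21, 10 and 16 had -0.22, 0.03, -0.21, -0.18 and -0.39. The difference was -0.26 ± 0.17 log2 (SE, limma adjusted p = 0.847), -0.06 without control 35 and -0.02 with median centring. In the liver channel alone the 5 exposed females lay at 7.89 to 8.19 and the controls at 8.19 to 8.57, without overlap before rounding. An exact two-sided permutation test of that difference gave p = 0.0357, where 56 relabellings allow no p below 0.0179. After Benjamini-Hochberg adjustment over the 12 permutation tests of the 6 members on both scales the p was 0.428, and for Acot1 the exact permutation p was 0.214 on each scale. The limma adjusted p of Acot2 in the liver channel was 1, at -0.31 ± 0.19 log2 (SE).

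The remaining members showed no called difference in females. Acot3 had 0.02 ± 0.22, Acot4 0.03 ± 0.21, Acot8 0.09 ± 0.09 and Acot12 0.16 ± 0.17 log2 (SE), with limma adjusted p from 0.898 to 0.994. Agilent's processed signals gave 0.40 for Acot3 and 0.52 for Acot4, and median centring 0.45 for Acot8 and 0.42 for Acot12, with limma adjusted p of 0.504 to 0.971. The intervals of Acot3 and Acot4 ran from -0.44 to 0.49 and from -0.41 to 0.48 log2, so a moderate change in either direction was not detectable with 8 females. The signs of Acot3, Acot4 and Acot12 turned without female control 25, at -0.24, -0.19 and -0.10 log2, and Acot3 and Acot4 were negative in the liver channel, at -0.16 and -0.18. By ratio 2 of 6 members had lower means in exposed females, where 41.5% of all genes did, and in the liver channel 4 of 6, where 50.3% did. The groups of 0 members by ratio and of 1 in the liver channel did not overlap with exposed females lower, against 1.05% and 1.28% of all genes. With the exposed females higher it was 0 members by ratio, against 3.17% of all genes. Limma called 0 of the 6 members and 0 of all 19363 genes (0%) on either scale, with 1296 (6.69%) by ratio and 602 (3.11%) in the liver channel below an unadjusted p of 0.05.

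The female difference minus the male difference was 0.73 ± 0.47 log2 (SE) for Acot1, with a 95% interval of -0.27 to 1.73, and 0.32 ± 0.24 for Acot2, with an interval of -0.19 to 0.83. No test was made because the male difference was used to choose the family. The order of the Acot1 group means was 1.81 in female controls, 1.76 in male controls, 1.40 in exposed females and 0.62 in exposed males. Female and male controls overlapped throughout, as did exposed females and either control group. Exposed males, at -0.02 to 0.95, lay below all 5 exposed females, at 1.01 to 1.76. Those low male values chose the family, and the share of all genes with such a separation was not computed. Nothing is read from it.

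Between the sexes Acot3, Acot4, Acot8 and Acot12 were not called. The males include the exposed animals whose low Acot1 and Acot2 ratios chose the family, so for those genes the values are a description. Over all arrays the males had Acot1 ratios from -0.02 to 2.87 with a median of 1.06, and the females from 1.01 to 2.27 with a median of 1.49. The mean of both male groups minus that of both female groups was -0.41 ± 0.24 log2 for Acot1, -0.22 ± 0.15 for Acot3, -0.18 ± 0.15 for Acot4 and -0.12 ± 0.12 for Acot2 (SE, limma adjusted p = 0.981 for Acot3 and for Acot4). Acot12 and Acot8 had -0.04 and -0.01 log2. The signs of Acot3, Acot4 and Acot12 turned with Agilent's processed signals, and those of Acot2, Acot8 and Acot12 with median centring. In the liver channel Acot3 had -0.30 ± 0.13 log2, with an unadjusted p of 0.0342 and an adjusted p of 1 in limma. The mean was lower in males for 6 of 6 members by ratio and 5 of 6 in the liver channel, where 51.4% and 52.8% of all genes were lower. Limma called 0 of the 4 members other than Acot1 and Acot2, against 9 genes (0.0465%) by ratio and 7 (0.0362%) in the liver channel, and 4.31% of genes had an unadjusted p below 0.05 by ratio.

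Apart from exposure and sex, the type I genes varied widely between animals of one group. The SD within groups was 0.54 log2 for Acot1, larger than that of 99.6% of all genes tested, where the median gene had 0.13. Acot3 had 0.34, Acot4 0.33, Acot2 0.27 and Acot12 0.26 log2, larger than 97.5%, 97%, 93.5% and 92.7% of genes. Acot8 had 0.11 log2, larger than 40% of genes. Within the liver channel Acot1 kept a high rank, at 0.50 log2 and above 98.8% of genes, while Acot12 fell among ordinary genes, at 0.19 log2 and above 62.3%.

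The tested type I genes varied together over the animals, though not only with each other. After the group means were taken out, Pearson's r over the 16 arrays was 0.87 between Acot1 and Acot2 and 0.88 between Acot3 and Acot4. It was 0.76 between Acot2 and Acot4, 0.69 between Acot2 and Acot3, 0.68 between Acot1 and Acot3 and 0.64 between Acot1 and Acot4. The Acot1 and Acot2 value was 0.81 without male control 33 and 0.58 in the liver channel, and that of Acot3 and Acot4 was 0.77 in the liver channel. Acot12 had 0.53 to 0.66 with the 4 type I genes by ratio and -0.10 to 0.32 in the liver channel. Its highest ratio value, with Acot3, lay above that of Acot1 and Acot4. Acot8 had -0.08 to 0.41 with the other 5 members by ratio. In the liver channel Acot8 had 0.53 with Acot1 and -0.16 to 0.34 with the rest. That 0.53 lay between the 0.50 of Acot1 and Acot4 and the 0.58 of Acot1 and Acot2. These are descriptions, and the ratios share the reference, the slides and the normalisation of each array.

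**Figure D3:**
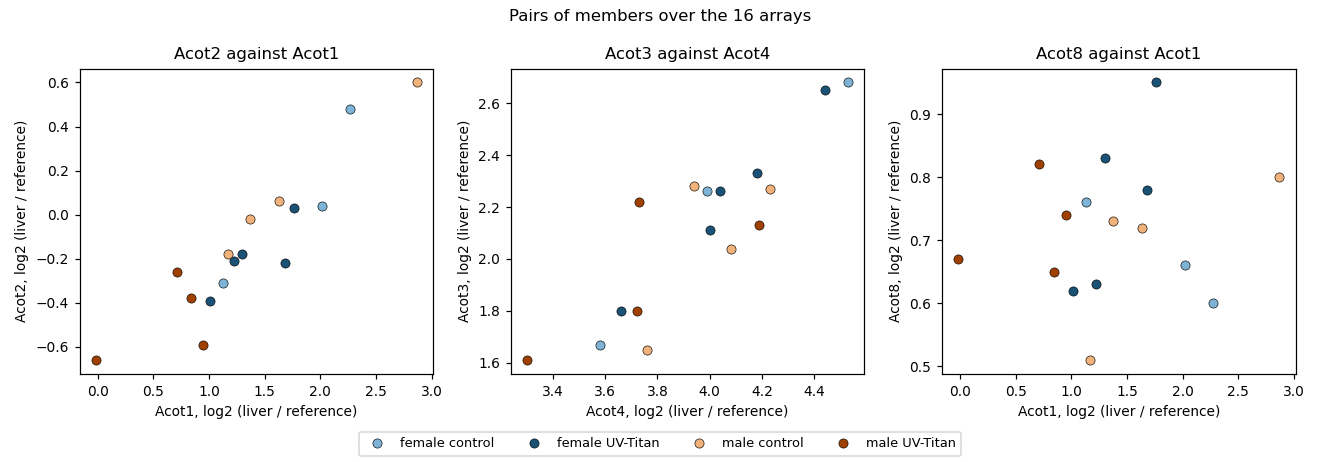
Log2 ratios of pairs of members on the 16 arrays, coloured by group, with Acot2 against Acot1, Acot3 against Acot4 and Acot8 against Acot1. The points of the first 2 panels run along a diagonal (r of 0.92 and 0.88 before group means were taken out), and those of the third do not (r = 0.17).

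Outside the family, the genes whose deviations followed Acot1 most closely were named by the highest r over the 16 arrays. Among them were Daam2 (0.92), Slc25a4 (0.89), AK076671 (0.87), Tesk2 (0.87) and LOC676546 (0.87). Daam2 is a formin of the actin cytoskeleton, and Slc25a4 is the ADP/ATP carrier of the inner mitochondrial membrane. Tesk2 is a protein kinase. Without male control 33 the r of these genes was 0.80 to 0.87, and in the liver channel 0.75 to 0.85. Slc25a4 had -0.33 ± 0.18 log2 in exposed males and Daam2 0.09 ± 0.09, so the genes closest to Acot1 within groups had differences of either sign.

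Other acyl-CoA thioesterases and related acyltransferases were tested for 8 of 11 listed genes, and 0 were called in either direction in either sex. In exposed males 3 of the 8 had lower means, near the 43.5% of all genes, with a median of 0.10 log2. Without controls 31 and 33 it was 4 of 8, with a median of 0.03. Acot7, the thioesterase best known from brain, had 0.16 ± 0.08 and Acot11, a thioesterase of brown fat, 0.12 ± 0.15 log2 in males. Acot9 of mitochondria had 0.11 ± 0.09, and Acnat2, a peroxisomal acyltransferase, had 0.19 ± 0.10. Them4 was at -0.14 ± 0.14 log2. In females Baat, which joins bile acids to amino acids and has the fold of the type I enzymes, had 1.13 ± 0.41 log2 (limma adjusted p = 0.694) and Acnat2 0.34 ± 0.11 (limma adjusted p = 0.65).

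Genes that make, bind or recycle acyl-CoA had lower mean ratios in exposed males in 14 of 15 tested cases of 16 listed. The median was -0.11 log2, with 0 called in either direction. Liver-channel means were lower for 11 of 15 in males, with a median of -0.10, and for 8 of 15 in females. Fabp1, the fatty acid binding protein of liver, had a ratio difference of -0.49 ± 0.39 log2, with -0.12 in the liver channel. Acsl1, the main long-chain acyl-CoA synthetase of liver, had -0.24 ± 0.11, Acsl3 -0.20 ± 0.10 and Nudt7, a peroxisomal coenzyme A diphosphatase, -0.17 ± 0.17 log2, and these 3 were -0.11, -0.10 and -0.10 in the liver channel. Without controls 31 and 33 the list had 12 of 15 lower means and a median of -0.07, with Fabp1 at -0.26 and Acsl1 at -0.14. In females 4 of 15 means were lower, with a median of 0.06. The fatty acid transport proteins Slc27a2 and Slc27a5 had 0.44 ± 0.16 and 0.39 ± 0.13 log2 there, Acsm1 0.49 ± 0.20 and Fabp1 0.87 ± 0.40 (limma adjusted p from 0.655 to 0.73). Each of these 4 was smaller in the liver channel, at 0.13, 0.15, 0.13 and -0.02 log2.

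Mitochondrial oxidation uses the acyl-CoAs that Acot2 splits. By ratio it had lower means in exposed males for 16 of 17 genes, against 43.5% of all genes, with a median of -0.12 log2 and 0 called. Liver-channel means were lower for 14 of 17 in males, with a median of -0.08, and for 8 of 17 in females. Etfa, which passes electrons from the acyl-CoA dehydrogenases, had a ratio difference of -0.39 ± 0.10, with 0.02 in the liver channel. Etfdh, the next carrier, had -0.32 ± 0.13, and the dehydrogenases Acadm and Acadl -0.29 ± 0.10 and -0.24 ± 0.11 log2. In the liver channel these 3 were -0.18, -0.08 and -0.01. By ratio the exposed males lay below all controls for Acadm. Without controls 31 and 33 the list had 15 of 17 lower means and a median of -0.13, with Acadm at -0.18. In females 5 of 17 means were lower, with a median of 0.05 log2, and Acaa2, Echs1, Cpt1a and Cpt2 had 0.24, 0.17, 0.19 and -0.16 log2 (limma adjusted p from 0.728 to 0.835), and -0.03, 0.03, 0.09 and -0.19 in the liver channel.

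Peroxisomal oxidation had lower means in exposed males for 15 of 17 genes, with a median of -0.19 log2 and 0 called. Ehhadh, the bifunctional enzyme, had a ratio difference of -0.38 ± 0.16, with -0.66 in the liver channel. Abcd3, an importer of acyl-CoAs into peroxisomes, had -0.27 ± 0.10 without overlap between the groups. Crot, a carnitine transferase, had -0.21 ± 0.15 log2. Liver-channel means were lower for 16 of 17, with a median of -0.16, and Abcd3 and Crot had -0.20 and -0.09 there. Without controls 31 and 33 the list had 15 of 17 lower means by ratio and a median of -0.12, with Ehhadh at -0.20. In females 4 of 17 were lower by ratio, with a median of 0.11 log2. Female liver-channel means were lower for 8 of 17, with a median of 0 log2. By ratio Decr2, Acox2, Acox3 and Abcd3 had 0.24, 0.18, 0.13 and -0.17 log2 in females (limma adjusted p from 0.788 to 0.823). In the liver channel these genes had 0.01, 0.01, 0.16 and -0.25.

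PPAR-alpha, its partners and further targets had lower mean ratios in exposed males for 14 of 20 genes, with a median of -0.12 log2 and 0 called. Liver-channel means were lower in males for 14 of 20, with a median of -0.13. Ppara itself had 0.01 ± 0.13 log2. Its coactivator Ppargc1a had -0.56 ± 0.24, Angptl4, an inhibitor of lipoprotein lipase, -0.42 ± 0.23 and Pdk4, which holds back pyruvate oxidation, -0.30 ± 0.24. Fgf21, a fasting hormone of liver, had 0.39 ± 0.51. Without male controls 31 and 33 these were -0.35, -0.02, -0.08 and 1.1 log2, and the list had 13 of 20 lower means and a median of -0.04. In females 5 of 20 means were lower, with a median of 0.21 by ratio, while in the liver channel 13 of 20 were lower with a median of -0.03. Fgf21 had 1.17 ± 0.53, G0s2, an inhibitor of fat breakdown, 0.50 ± 0.15 and Ppara 0.31 ± 0.14 log2 in females (limma adjusted p from 0.62 to 0.716). Fgf21 and G0s2 had 1.19 and 0.85 in the liver channel, and Ppara turned to -0.10 there. Across the 5 lists, the male means are read against 43.5% of all genes with a lower mean and a median of 0.02 log2. The female means are read against 41.5% and a median of 0.02 by ratio. In the liver channel 48.7% of all genes were lower in males and 50.3% in females. The lists were chosen with earlier results of these data known and overlap in function with a list already seen to be low in males.

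**Figure D4:**
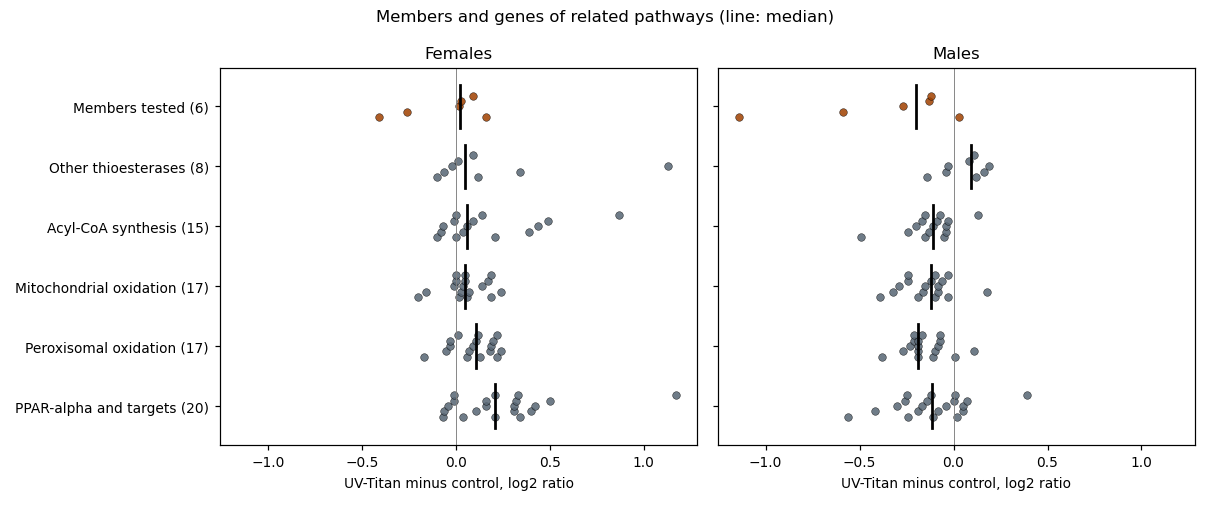
Difference between UV-Titan and control in log2 ratio (horizontal axis) for the 6 tested members and for the genes of 5 related lists, 1 point for each gene, with the median as a line and the number of genes in brackets. By ratio Acot1 (-1.14 in males, -0.41 in females) and Acot2 (-0.59 and -0.26) lie to the left of every list gene, the male values having chosen the family. The liver channel is not plotted. There, Ehhadh at -0.66, Cyp4a14 at -0.51, Cyp4a10 at -0.49 and Ppargc1a at -0.47 lie beyond Acot2 at -0.43 in males. In females Ehhadh at -0.51 lies beyond Acot1 at -0.36 and Acot2 at -0.31, and Etfdh is also at -0.31.

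The sequences before the gene starts are shown because Acot1 and Acot2 moved together and because PPAR-alpha binds a known repeat. RefSeq start sites on GRCm38.p6 were matched for 7 of 7 members, and the 250 bases before the start were searched on both strands for 2 copies of AGGTCA in the same direction with any 1 base between them, the direct repeat bound by PPAR-alpha with its partner RXR. Capitals mark the best match where it had at most 2 mismatches, and the 4 genes printed lie on the plus strand. The Acot1 and Acot2 stretches, whose genes had the low male values, hold no such match and are in lower case throughout.
Acot1, chr12:84009252-84009501: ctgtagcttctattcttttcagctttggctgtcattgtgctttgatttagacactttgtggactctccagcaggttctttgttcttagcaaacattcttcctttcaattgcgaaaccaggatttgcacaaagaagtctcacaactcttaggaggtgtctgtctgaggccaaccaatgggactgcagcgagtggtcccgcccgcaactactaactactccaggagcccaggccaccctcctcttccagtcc
Acot2, chr12:83987611-83987860: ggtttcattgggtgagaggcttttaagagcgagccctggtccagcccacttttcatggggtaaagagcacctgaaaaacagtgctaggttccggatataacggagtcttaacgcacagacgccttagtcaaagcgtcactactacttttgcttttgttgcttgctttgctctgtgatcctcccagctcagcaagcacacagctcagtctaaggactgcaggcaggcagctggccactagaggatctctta
Acot4, chr12:84038129-84038378: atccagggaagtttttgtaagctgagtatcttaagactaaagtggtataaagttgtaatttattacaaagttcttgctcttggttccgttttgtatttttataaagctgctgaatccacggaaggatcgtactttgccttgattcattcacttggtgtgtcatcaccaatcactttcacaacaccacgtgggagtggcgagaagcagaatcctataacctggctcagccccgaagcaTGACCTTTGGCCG
Acot12, chr13:91741271-91741520: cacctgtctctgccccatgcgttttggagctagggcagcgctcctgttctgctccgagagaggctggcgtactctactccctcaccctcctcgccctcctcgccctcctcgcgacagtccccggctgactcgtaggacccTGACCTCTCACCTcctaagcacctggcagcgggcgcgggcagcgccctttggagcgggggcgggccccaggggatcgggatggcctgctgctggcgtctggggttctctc

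Acot12 had the closest match, on the minus strand with 1 mismatch, and 0.484% of 32851 promoter stretches of the same length had a match that close. Acot4 had 2 mismatches, also on the minus strand and next to the start, as close as in 3.24% of stretches. Acot2 and Acot5 had 3 mismatches at best, which 21.3% of stretches reach, Acot1 and Acot3 had 4, and Acot8 had 5. A single AGGTCA, on either strand, was present in Acot4, Acot5 and Acot12 and in 14% of all stretches. The aligned Acot1 and Acot2 stretches were identical at 51.2% of 250 bases, within the 47.2% to 54.8% of all pairs of members. These matches describe letters in a short window and say nothing about binding.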

How the data were processed

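The authors deposited 16 Agilent Feature Extraction 9.5.3.1 files (version per the labels) with red and green spot intensity values, and a table of log2 values whose normalisation is not given in the sources used here. Outlier and above-background flags are other values of the same deposited files. The table followed the log2 ratios computed here at r 0.983 to 0.992, with a slope of 0.992 to 1.11. Its column medians were -0.0449 to -0.0372. Its scale and direction are thus log2 of red over green, while its background correction and normalisation stay unknown. It served as an alternative.

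Per the labels' protocols, 200 ng of liver RNA was labelled with the red dye. Of 45018 spots 43379 were not controls. Intensities were background-corrected (normexp, offset 50) and loess-normalised within arrays in limma 3.58.1 under R 4.3.3, with control spots and outlier spots (90 to 135 per array) at weight 0. Spots were averaged per probe. Probes well above background in liver on at least 3 arrays were kept, and the brightest per gene gave 19363 genes, 12356 of them named through the GRCm38.p6 accession table. The liver channel alone was quantile-normalised.

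One limma model of 4 group means was fitted to 16 arrays, with two-sided p-values adjusted by Benjamini-Hochberg over the 19363 genes and called under 0.05. It was also run on simulated data with known shifts in females and independent noise for each gene. Those data held no slide, litter or tissue differences, so that run says nothing about them. Lower bounds of liver over reference follow loess and Aquantile, with the dim channel set to the lowest signal well above background on each array where that was higher. The members, lists and tests were chosen with earlier results of these data known. Named genes were the 7 members, up to 4 genes of each list with the smallest p in females, up to 4 with the largest difference in males, and the 6 genes most like Acot1. Some genes this rule names are not reported here. Alternatives were Agilent's processed signals, the authors' table, no background correction, median centring, 2 other filters, the mean of all probes, slide and scan day as blocks, array weights, 1 sex only and leaving out each array.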

Additional observations from a re-analysis of the deposited data

Results flagged for a closer look

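The Acot1 signal in the liver channel of male UV-Titan 4, at 10.34 log2, lay far below the other 3 exposed males at 11.13 to 11.26. Its gap to the nearest of them was 0.863 of the range of the group of 4, above Dixon's critical value. Among 36 groups of 4 or 5 animals examined for the 6 tested members by ratio and in the liver channel, 1 was marked, and chance marks about 1 in 20. Without that animal the male difference of Acot1 was -0.92 log2 in the liver channel and by ratio, and its reference signal was 9.86, within the 9.75 to 9.93 of all arrays.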

How the results depend on the processing

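The groups share no animal numbers, so animals could be paired only by slide. With slide as a block Acot1 was -0.94 and Acot2 -0.51 log2 in males by ratio. Of 294 alternative values of single members in males, none of them tested, 6 changed sign, 4 of Acot8 and 2 of Acot12 by ratio, and all of Acot1 and Acot2 kept theirs. Leaving out arrays could not turn the ratio signs of Acot1 and Acot2, whose groups did not overlap. By ratio, leaving out single arrays gave Acot1 -1.33 to -0.77 and Acot2 -0.69 to -0.43 log2 in males. In females and between the sexes 0 of 582 member values passed the threshold, those of Acot1 and Acot2 between the sexes being a description, and 38 changed sign. The cause was not tested for any of them. In females by ratio, Acot3 turned to -0.091 with the authors' deposited table, -0.13 without background correction and -0.029 with array weights, and Acot4 to -0.15 and -0.11 with the first 2. Leaving out single arrays gave -0.24 to 0.26 for Acot3, -0.19 to 0.28 for Acot4 and -0.10 to 0.37 for Acot12. In the female liver channel, Acot4 was 0.068 with median centring, and with slide as a block Acot8 was -0.001 and Acot12 -0.044. Single arrays left out gave -0.28 to 0.032 for Acot3, -0.091 to 0.11 for Acot8 and -0.091 to 0.16 for Acot12. Between the sexes by ratio, median centring gave 0.03 for Acot2, 0.18 for Acot8 and 0.11 for Acot12, and Agilent's processed signals 0.21 for Acot3, 0.25 for Acot4 and 0.12 for Acot12. Acot8 was 0.006 with slide as a block and 0.004 without male controls 31 and 33. Single arrays left out gave -0.031 to 0.017 for Acot8 and -0.18 to 0.06 for Acot12. In the liver channel between the sexes, Acot8 was -0.006 with slide as a block and Acot12 0.076 with median centring. There, single arrays left out gave -0.027 to 0.077 for Acot8 and -0.12 to 0.004 for Acot12.

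In females by ratio limma called 1 gene with slide as a block, 1 with scan day as a block, 6 with array weights and 0 to 1 without single arrays, and none of the 6 called with array weights was a member. In males it called 1 gene with Agilent's processed signals. Between the sexes by ratio it called 3 instead of 9 genes when a probe had to be above background on all arrays, and 6 to 12 in the other alternatives. In the liver channel it called 6 to 10 instead of 7. The number of animals limits every comparison. Acot5 and the reference signals of Acot3, Acot12 and the brighter Acot4 probe were not well above background on most arrays.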
